A study of Mus musculus with 9 samples.

Results

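The genes described here are the 10 that carry the main steps of MHC class I antigen presentation: the heavy chains H2-K1 and H2-D1, the light chain B2m, the peptide transporter genes Tap1 and Tap2, the loading factor Tapbp, the immunoproteasome genes Psmb8, Psmb9 and Psmb10, and the transactivator Nlrc5. They were chosen by symbol, and each of the 10 has a row among the 23955 rows of the count table. Their RNA was measured by RNA-seq in 9 mouse gut organoid cultures, which are epithelial cells grown in a gel. The 3 MIN samples came from normal-looking gut beside the tumors of APCmin/+ mice, and the 3 Adenoma samples from the adenomatous polyps of such mice. The 3 Sulindac samples were adenoma organoids treated with sulindac, a nonsteroidal anti-inflammatory drug (NSAID). Every group thus carries the Apc mutation and none is wild type. The groups shared 1 medium, with Noggin, EGF, bFGF, R-spondin1 and B27. The age of the mice, how many mice a culture came from, the state of the remaining Apc allele and the dose and duration of sulindac in the organoids are not given in the sources used here.

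A class I molecule is a heavy chain bound to beta-2-microglobulin that shows a short peptide at the cell surface, where CD8 T cells and natural killer cells read it. The peptides are cut by the proteasome in the cytosol, pumped into the endoplasmic reticulum by the heterodimer of Tap1 and Tap2, trimmed there and loaded with the help of tapasin, the product of Tapbp. In cells exposed to interferon, Psmb8, Psmb9 and Psmb10 take the places of the constitutive catalytic subunits Psmb5, Psmb6 and Psmb7. Nlrc5 drives the class I genes from a promoter module shared by heavy chains and B2m, and in gut epithelium most of these genes respond to interferon.

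The upstream sequences of the heavy chain and light chain genes are shown because these genes hold a common arrangement of motifs. The bases are the 250 before the transcript start in RefSeq, build GRCm38.p6, and lie outside exons of the transcript concerned. Of the 10 genes, 8 have such a window, and H2-K1 has 2, of which the more upstream is shown. Capitals mark every match, on either strand, to an interferon regulatory factor core (AANNGAAA), an NF-kB site (GGGNNTTNCC), the X2 motif TGACG and the CCAAT box, read as ATTGG on the other strand.
H2-K1, chr17:34000348-34000597, minus strand: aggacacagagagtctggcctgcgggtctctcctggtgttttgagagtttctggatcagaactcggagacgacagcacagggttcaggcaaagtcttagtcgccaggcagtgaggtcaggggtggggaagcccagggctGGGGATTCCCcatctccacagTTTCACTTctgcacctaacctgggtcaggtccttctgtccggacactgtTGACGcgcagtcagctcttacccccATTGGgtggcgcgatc
H2-D1, chr17:35262844-35263093, plus strand: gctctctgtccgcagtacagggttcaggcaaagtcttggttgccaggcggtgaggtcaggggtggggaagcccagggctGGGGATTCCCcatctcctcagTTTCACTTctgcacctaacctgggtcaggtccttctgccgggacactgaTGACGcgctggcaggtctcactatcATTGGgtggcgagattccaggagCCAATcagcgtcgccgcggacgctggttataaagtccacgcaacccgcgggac
B2m, chr2:122147437-122147686, plus strand: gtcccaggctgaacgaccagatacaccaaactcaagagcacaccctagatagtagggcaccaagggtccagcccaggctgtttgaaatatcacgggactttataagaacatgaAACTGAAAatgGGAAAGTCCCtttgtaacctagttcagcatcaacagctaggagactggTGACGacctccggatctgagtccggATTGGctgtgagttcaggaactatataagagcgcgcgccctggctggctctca

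All 3 windows hold the X2 motif followed, after 20 bases, by ATTGG. This pair starts at position -41 in H2-K1, -101 in H2-D1 and -78 in B2m, counted back from the transcript start. Of all 32851 RefSeq promoter windows, 30 (0.0913%) hold the pair at that spacing, a spacing that was set after these letters had been read. Of the 8 class I presentation genes with a window, 3 hold it, the same 3 hold the interferon regulatory factor core, found in 21.3% of all windows, and the same 3 hold the NF-kB motif, found in 4.11%. The X2 motif alone was found in 5 of the 8 (17.8% of all windows) and the CCAAT box in 6 of the 8 (33.8%). The H2-K1 and H2-D1 windows aligned over 190 bases with 174 identical (91.6%). Among 14 other class I heavy chain genes with a window, 1, H2-M3, holds the spaced pair. A match describes letters only and shows no binding.

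Tap1 and Psmb9 are neighbors transcribed away from each other, and the 225 bases between their RefSeq starts are shown because the 2 genes on either side of it moved in opposite directions. Capitals mark the CCAAT box and the X2 motif, and neither the interferon regulatory factor core, the NF-kB motif nor the spaced pair occurs in it.
Psmb9 to Tap1, chr17:34187331-34187555, plus strand of GRCm38.p6: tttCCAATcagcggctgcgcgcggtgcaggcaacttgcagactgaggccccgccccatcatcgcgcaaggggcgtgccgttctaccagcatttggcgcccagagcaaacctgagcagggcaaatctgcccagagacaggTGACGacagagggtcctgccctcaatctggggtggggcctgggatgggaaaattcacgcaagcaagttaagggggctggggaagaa

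The samples held 30881206 to 48412477 counts each, and 3 counts, taken as the floor, correspond to 0.0641 to 0.1 CPM, the counts scaled to the TMM-normalized library total. The cultures carried the label's cell type, since all 7 epithelial markers were detected and summed to 5499 to 7988 CPM in MIN, 3215 to 4237 in Adenoma and 4507 to 5391 in Sulindac. Of these 7, 5 were lower in Adenoma than MIN, with Krt20, a keratin of differentiated gut cells, at 7144, 7740 and 6808 counts in MIN against 18, 12 and 49 in Adenoma. Krt18, of the same list, had 551.4 ± 146 CPM in MIN and 921.4 ± 230 in Adenoma (log2 fold change 0.74, not called) and was higher in Sulindac than MIN (1.16 ± 0.17, adjusted p = 4.42e-04). Krt8 and Vil1, lower in Adenoma than MIN, were higher in Sulindac than Adenoma, by 0.85 and 0.72 on the log2 scale, calls that 6 and 8 of 13 alternatives kept. Both were lost without Adenoma replicate 2 or any 1 Sulindac replicate, and Krt8 also without Adenoma replicate 1, with adjusted p up to 0.0303 and 0.0236. Of 10 leukocyte markers, 6, Cd3e among them, had 3 counts or fewer in every sample, and the pan-leukocyte gene Ptprc had 0 to 1 counts in MIN, 4 to 8 in Adenoma and 0 in Sulindac. The summed leukocyte list lay at 4.53 to 6.34 CPM in MIN, 8.33 to 16.6 in Adenoma and 2.96 to 4.23 in Sulindac, mostly from Cd68 (lysosomal, 66, 53 and 83 counts in MIN against 369, 284 and 560 in Adenoma) and Itgam (159, 155 and 148 against 13, 7 and 4), which passed the test in opposite directions. The part that leukocytes or the state of differentiation had in the results below was not tested. The endothelial list summed to at most 0.758 CPM in any sample and the mesenchymal list to at most 2.28 CPM, with Col1a2, Col3a1, Dcn and Lum at 0 in all 9 samples. In bulk RNA such as this, fewer cells expressing a gene and less RNA of it per cell cannot be told apart.

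The first comparison, Adenoma against MIN, asks how tumor organoids differ from the gut beside them. In adenoma the immunoproteasome genes fell steeply and B2m fell modestly, Tap1 rose, and the classical heavy chains, Tap2 and Tapbp did not pass the test. Of the 10 genes, 9 passed the filter on low counts, and the quasi-likelihood test of edgeR, at a 1% false discovery rate (FDR), called 1 higher and 4 lower, where 18.5% of all genes tested were higher and 20.1% lower. The median log2 fold change over the 9 was -0.45, against -0.01 over all 13744 genes tested. Psmb8, among the 4 lower and in this median, passed the filter through MIN alone and so had to differ. Adjusted p-values here and below are Benjamini-Hochberg values over all genes tested, and values after ± are standard errors of the fit for log2 fold changes and SD (n = 3) for CPM.

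**Figure D1:**
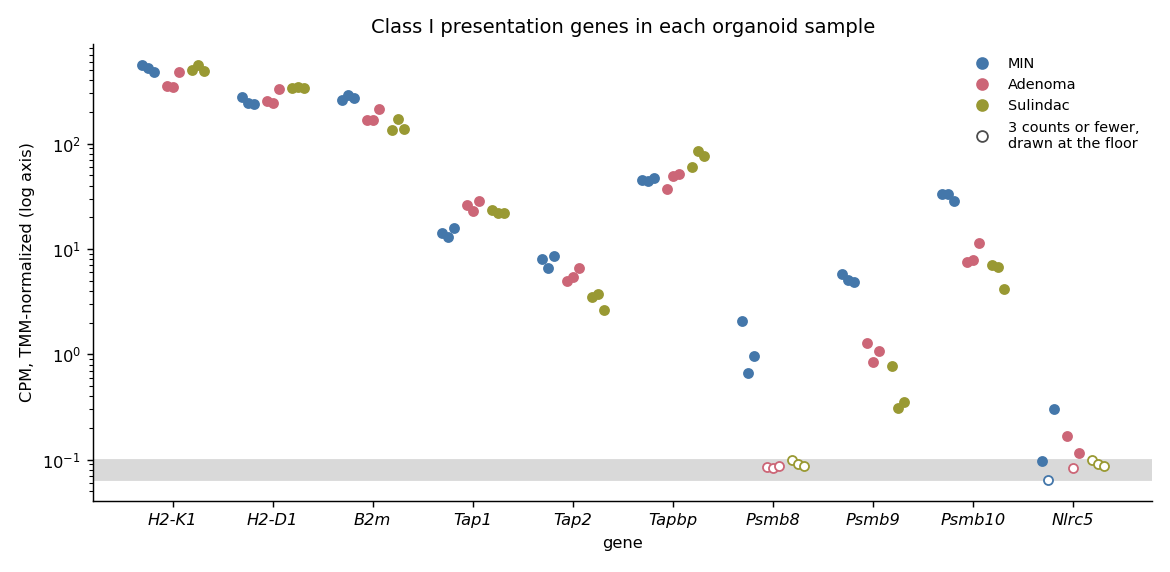
Level of each class I presentation gene in each organoid sample, as TMM-normalized CPM on a log axis, with 1 point per sample. The gray band spans the floors of 3 counts (0.0641 to 0.1 CPM) and open points are samples at or under the floor. Psmb9 and Psmb10 in MIN lie above all Adenoma and Sulindac samples, and all Adenoma and Sulindac samples are at or under the floor for Psmb8.

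Psmb10, the counterpart of Psmb7, had 33.2, 33.1 and 28.7 CPM in MIN and 7.5, 7.91 and 11.4 in Adenoma. The groups were far apart, with means of 31.65 ± 2.56 and 8.943 ± 2.16 CPM, and the log2 fold change was -1.82 ± 0.18 (adjusted p = 5.02e-05). Psmb9, the counterpart of Psmb6, had 5.79, 5.02 and 4.9 CPM in MIN and 1.29, 0.838 and 1.07 in Adenoma. It too separated the groups completely, with a log2 fold change of -2.29 ± 0.24, at an adjusted p of 7.69e-05. Psmb8, the counterpart of Psmb5, was counted 85, 31 and 35 times in MIN and 0, 1 and 0 times in Adenoma. It was thus at the floor in every adenoma sample, and it entered the test through its MIN counts alone. Its summed counts of 151 and 1 make it 128-fold lower in Adenoma relative to the normalized totals, with a 95% interval of 22.7 to 5110 that covers counting error only. The calls of Psmb9 and Psmb10 held in all 13 alternative analyses. Psmb8 was also called in the 12 that could test it, but it had to differ, so this adds no support. Of the 50-base stretches of Psmb8 transcripts, 11.9% also occur in other genes of GENCODE M21, chiefly the overlapping gene model Gm20496, against 4.2% for Psmb9, all with Tap1, and none for Psmb10.

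The constitutive proteasome genes gave no call. Of its 14 genes tested, 0 were higher and 0 lower in Adenoma by edgeR or by DESeq2, 0 had an unadjusted p under 0.05, and the list had a median log2 fold change of -0.06. Psmb5 had a log2 fold change of 0.06 ± 0.15, at an adjusted p of 0.759, Psmb6 of -0.19 ± 0.12 (adjusted p = 0.21) and Psmb7 of -0.06 ± 0.11 (adjusted p = 0.671), and the sign of Psmb5 and of Psmb7 turned in 1 alternative each. Of the 50-base stretches of Psmb5, 54.1% are shared, mostly with the pseudogene-like model Gm3375.

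Counts divided by transcript length allow each immunoproteasome gene to be read as a share of its catalytic pair within a sample, a ratio that no scaling between samples can change. Psmb10 made up 16.9%, 16.5% and 14.7% of the sum of Psmb10 and Psmb7 in MIN and 4.65%, 5.13% and 6.1% in Adenoma. In no adenoma sample did the share reach even the lowest MIN value, and in Sulindac it was 4.36%, 3.73% and 2.69%. Psmb9 made up 2.5%, 2.12% and 2.13% of its pair with Psmb6 in MIN, 0.719%, 0.448% and 0.46% in Adenoma and 0.38%, 0.129% and 0.178% in Sulindac. For Psmb8 and Psmb5 the share was 1.24%, 0.37% and 0.584% in MIN and at most 0.0281% in any other sample. The constitutive subunit therefore was the more abundant RNA of each pair in all 9 samples, MIN included. These shares were formed after the counts were known and were not tested.

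**Figure D2:**
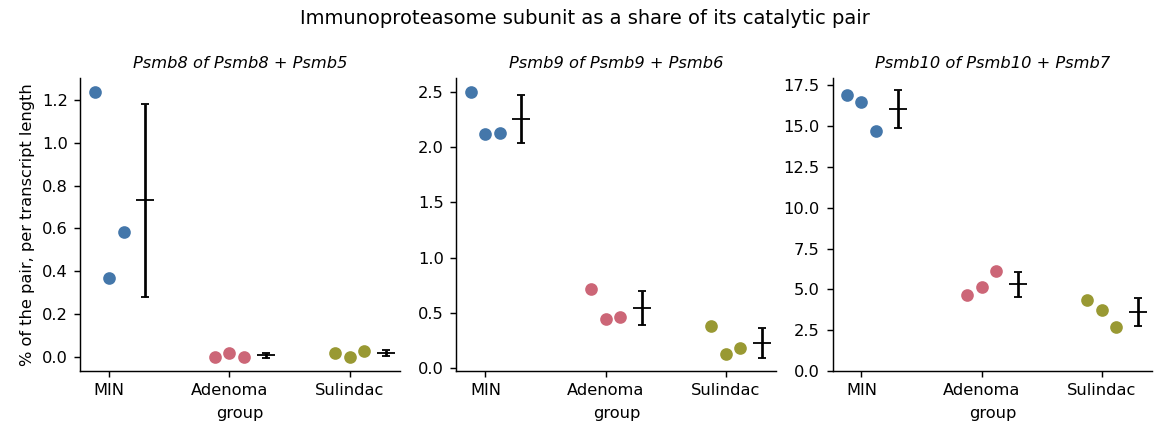
Share of the immunoproteasome gene in its catalytic pair, in percent of the summed counts per transcript length, for each sample (points) with the mean and SD of each group of 3 (black bars). The 3 panels have their own linear axes, and the mean share of Psmb10 of 16% in MIN compares with 5.29% in Adenoma and 3.59% in Sulindac.

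B2m, the light chain of every class I molecule, had 262, 292 and 270 CPM in MIN and 167, 168 and 214 in Adenoma. The highest adenoma sample stayed under the lowest MIN sample, and the log2 fold change was -0.58 ± 0.13 (adjusted p = 0.00459). This call was close to the threshold. It was lost when MIN replicate 1, 2 or 3 or Adenoma replicate 1 or 2 was left out (adjusted p = 0.0102 to 0.0225), and over all 13 alternatives the adjusted p ranged from 9.42e-05 to 0.0225 while the log2 fold change stayed between -0.71 and -0.45.

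H2-K1, the most abundant of the classical heavy chain RNAs in every group, had 555, 517 and 483 CPM in MIN and 350, 346 and 482 in Adenoma. Adenoma replicates 1 and 2 were well below MIN, and Adenoma replicate 3 reached the lowest MIN sample to within 1 CPM. The log2 fold change was -0.4 ± 0.15 (adjusted p = 0.0573), and without Adenoma replicate 3 it was -0.57 and passed the test (adjusted p = 0.00284, the lowest of 13 alternatives that reached up to 0.173). H2-D1 had 276, 244 and 235 CPM in MIN and 251, 244 and 328 in Adenoma. The groups overlapped, with a log2 fold change of 0.12 ± 0.14, at an adjusted p of 0.488. Adenoma replicate 3 was the highest of its group for H2-K1, H2-D1 and B2m alike. Of the 50-base stretches of H2-K1, 9.6% occur in other genes, chiefly H2-Q10, and of those of H2-D1 12.8%, chiefly H2-Q1.

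Tap1, which with Tap2 forms the peptide pump, was the 1 gene of the 10 that rose. It had 14.2, 12.9 and 15.7 CPM in MIN and 26.3, 22.9 and 28.7 in Adenoma, with no overlap, and a log2 fold change of 0.87 ± 0.14, at an adjusted p of 7.85e-04. All 13 alternatives kept this call, with log2 fold changes of 0.79 to 1. Tap2 had 8.08, 6.65 and 8.58 CPM in MIN and 4.97, 5.39 and 6.62 in Adenoma, where the highest adenoma sample lay just below the lowest MIN sample, and its log2 fold change of -0.45 ± 0.19 did not pass (adjusted p = 0.0802). Of the 50-base stretches of Tap2, 11.6% are shared, mostly with the gene model Gm15821. Tapbp had 45.4, 44.4 and 46.7 CPM in MIN and 36.7, 49.3 and 51.5 in Adenoma, with the adenoma samples on both sides of MIN and a log2 fold change of 0.01 ± 0.14, at an adjusted p of 0.941.

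Tap1 and Psmb9 differ in direction although they share the stretch of 225 bases printed above. Their gene models overlap by 212 bases on opposite strands in GENCODE M21, and whether the counting used strand is not given in the sources used here. Such shared bases make up 2.9% of the 50-base stretches of Tap1. Per transcript length, Tap1 stood at 1.12, 1.18 and 1.46 times Psmb9 in MIN and at 9.32, 12.5 and 12.3 times in Adenoma.

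Nlrc5, the transactivator of the class I genes, was counted 4, 0 and 11 times in MIN, 6, 3 and 4 times in Adenoma and 1, 2 and 3 times in Sulindac. At these counts it was removed by the filter in each comparison, and a difference was not detectable at this depth. Ciita, the related transactivator of class II genes, had 4, 4 and 2 counts in MIN, 0 in each adenoma sample and 0, 3 and 1 in Sulindac.

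**Figure D3:**
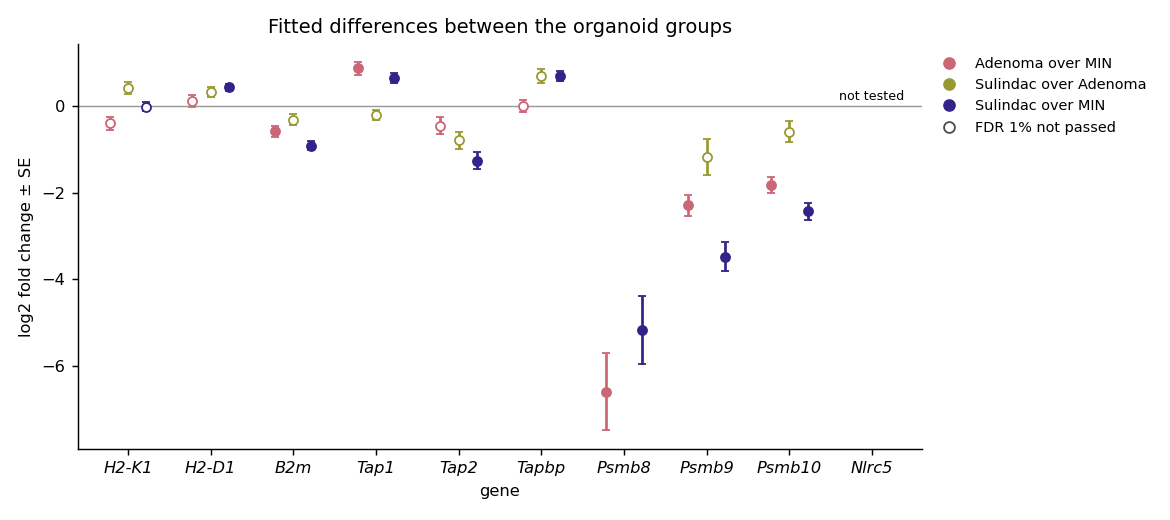
Log2 fold change of each class I presentation gene in the 3 comparisons, with bars of 1 standard error from edgeR's fit. Filled points passed an FDR of 1% and open points did not. Psmb8 entered its tests through MIN alone. Nlrc5 was tested in none of the comparisons and Psmb8 was not tested in Sulindac over Adenoma, and the comparisons share samples. In Adenoma over MIN, Tap1 (0.87) is the 1 filled point above 0.

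Outside the 10 genes, the other class I heavy chain genes ranged from near absence to high counts in adenoma. These are the class Ib genes of the Q, T and M regions and H2-L. Of 22 listed, 16 were tested, 0 rose and 7 fell in Adenoma (median log2 fold change -1.21, also with H2-Q9, at 0 counts in Adenoma, held at its bound), where DESeq2 called 1 higher and 11 lower. Of the 7, 4 (H2-Q6, H2-Q7, H2-Q9 and H2-Q10) passed the filter on low counts through MIN alone, so that they had to differ, and their calls are given as a description, with no p. All 4 are also in the median and pull it down. H2-Q10, which encodes a secreted class I protein known mostly from liver, was counted 3713, 2845 and 2266 times in MIN and 1, 0 and 0 times in Adenoma. That is 7510-fold lower relative to the normalized totals, with a counting interval of 1350 to 296000. H2-Q9, which encodes a Qa-2 molecule, was counted 337, 192 and 281 times in MIN and 0 times in all 3 adenoma samples, so that it was at least 230-fold lower against a floor of 3 counts over the group. H2-Q6 had 105, 67 and 47 counts in MIN and 1, 0 and 0 in Adenoma. The Q genes resemble each other: 35% of the 50-base stretches of H2-Q6 and 19.1% of those of H2-Q10 occur in other genes, and H2-Q9 is not in GENCODE M21, so that reads may be split among them and single Q genes are uncertain.

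Not all class Ib genes were low in adenoma. H2-T23, which encodes Qa-1, the ligand of the NKG2A receptor, had 2166, 2684 and 2526 counts in MIN and 2725, 2939 and 4375 in Adenoma, with a log2 fold change of 0.68 ± 0.2 that did not pass (adjusted p = 0.0199). It was singled out after its values were seen. In the plot of the other heavy chains, H2-Q1, H2-Q2, H2-Q4, H2-T23 and H2-T24 had at least 161 counts in every sample, although H2-Q4 had a log2 fold change of -0.73 in Adenoma over MIN that did not pass (adjusted p = 0.0319). H2-Q2 had 47.24 ± 3.58 CPM in MIN and 33.94 ± 4.2 in Adenoma, with no overlap. H2-Q1 had means of 34.98 and 30.76 CPM, and H2-T24 of 6.45 and 6.81. Of the 50-base stretches, 36.4% of H2-Q4, 16.1% of H2-Q2, 15% of H2-Q1, 14.5% of H2-T23 and 3.2% of H2-T24 occur in other genes.

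**Figure D4:**
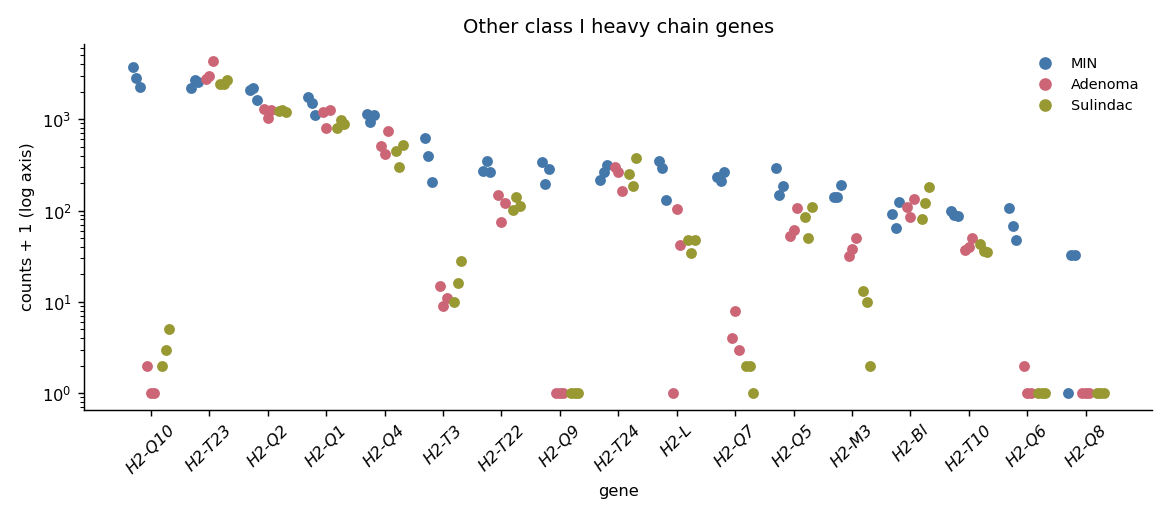
Counts plus 1, on a log axis and not normalized, of the 17 other class I heavy chain genes with over 30 counts in some sample, with 1 point per sample. H2-Q10, H2-Q9 and H2-Q6 lie at 4 counts or fewer in every Adenoma and Sulindac sample, while H2-T23 has at least 2166 counts in all 9.

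Among 14 genes that supply, trim or load peptides, 0 rose and 4 fell in Adenoma (median log2 fold change -0.16). The largest change was in Erap1, the aminopeptidase that trims peptides in the endoplasmic reticulum, with 3838, 4294 and 2935 counts in MIN and 1016, 1044 and 804 in Adenoma. Its log2 fold change was -1.71 ± 0.13 (adjusted p = 8.88e-06). Tapbpl, which encodes the tapasin-like editor TAPBPR, had a log2 fold change of -0.98 ± 0.17, at an adjusted p of 0.00135, and Psme2, a subunit of the PA28 activator, one of -0.57 ± 0.12 (adjusted p = 0.00487, up to 0.0206 over 13 alternatives, and lost with library size alone and without any 1 MIN replicate or Adenoma replicate 1 or 2). Of the 50-base stretches of Psme2, 28.3% are shared, with Psme2b. The chaperones Calr and Canx and the disulfide isomerase Pdia3 had log2 fold changes of -0.09, -0.14 and -0.02, and none of them passed. These were named after their values were seen, as members of the loading complex.

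Of 18 regulators of class I genes, 2 rose and 1 fell (median log2 fold change 0.15). Irf8, an interferon regulatory factor, fell from 2665, 3109 and 2470 counts to 477, 405 and 489 (log2 fold change -2.35 ± 0.12, adjusted p = 1.08e-06). Rela, an NF-kB subunit, rose with a log2 fold change of 1.03 ± 0.1, at an adjusted p of 4.5e-05, and Rfx5, a subunit of the factor that binds beside the X2 motif, rose with 0.8 ± 0.11 (adjusted p = 4.23e-04). Of the 50-base stretches of Rfx5, 22.3% are shared, with the gene model B230398E01Rik. The log2 fold change of Irf1 was 0.58 ± 0.19 (adjusted p = 0.0309, and 0.00677 without MIN replicate 1, the lowest of 13 alternatives), and it was not called.

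On the interferon side, Ifng and Ifnb1, the genes of interferon gamma and interferon beta, had 0 counts in all 9 samples, which allows up to 3 counts each. Ifnl2, of interferon lambda, had 0 counts in MIN, 2 to 3 in Adenoma and 0 to 1 in Sulindac. Ifnl3 had 0 counts in MIN, 0 to 2 in Adenoma and 0 to 1 in Sulindac. All these counts were at or under the floor and were not tested. Of 13 genes for interferons, their receptors and the attached kinases, 9 were tested, 2 rose and 2 fell in Adenoma (median log2 fold change -0.01). Ifngr1, the ligand-binding chain of the interferon gamma receptor, fell from 7899, 8873 and 8743 counts to 1959, 1406 and 1875 (log2 fold change -2.06 ± 0.16, adjusted p = 1.32e-05). Il10rb, shared by the interferon lambda receptor, had a log2 fold change of -0.92 ± 0.11, at an adjusted p of 1.87e-04, and Ifnar2, of the type I receptor, one of 0.91 ± 0.14 (adjusted p = 7.96e-04).

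**Figure D5:**
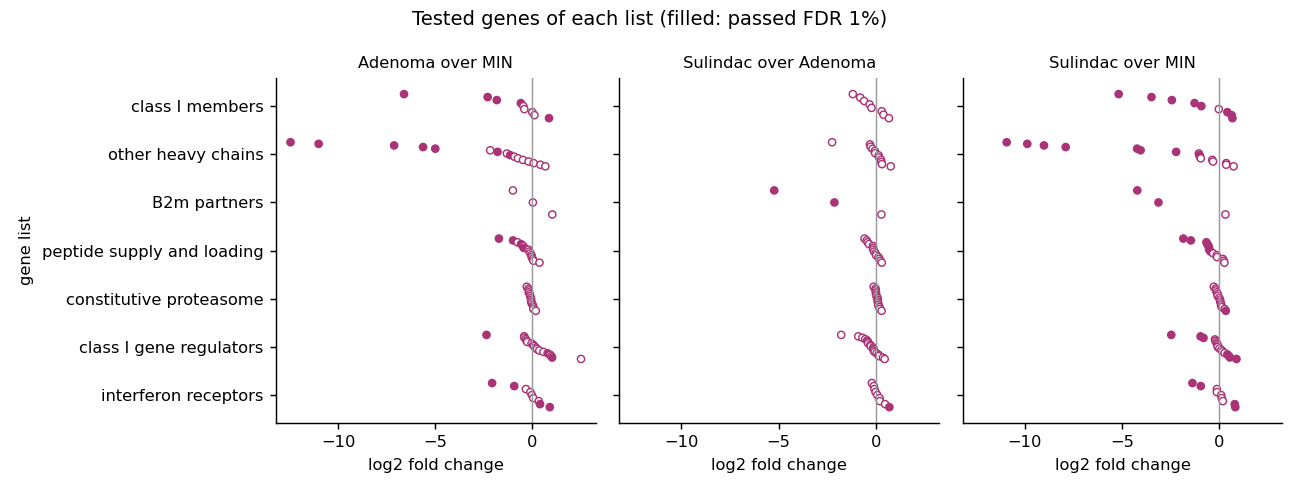
Log2 fold changes of the tested genes of each list in the 3 comparisons, on a common axis, with 1 point per gene, ordered within its list. Filled points passed an FDR of 1%. The constitutive proteasome genes cluster around 0 (median -0.06 in Adenoma over MIN). The lowest point, at -12.45, is H2-Q10, which had 1 count in all in Adenoma, so that its size is uncertain. H2-Q10, H2-Q6, H2-Q7, H2-Q9 and Psmb8 passed the filter on low counts through MIN alone and had to differ from it. Cd1d1 entered through 1 group alone in both comparisons of Sulindac.

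The second comparison, Sulindac against Adenoma, asks what the drug changed in tumor organoids. No class I presentation gene passed an FDR of 1% here. Of the 10 genes, 8 were tested, and 0 were higher and 0 lower by edgeR, where 8.32% of all 12962 genes tested were higher and 9.1% lower. Of these 8, 7 had an unadjusted p under 0.05. The share of all genes under that p is not given here, so this count is no result about the 8. At an FDR of 5%, 2 of the 8 passed, where 4408 of the 12962 genes tested did. The median log2 fold change over the 8 was -0.26. DESeq2's Wald test called 2 of them, Tapbp higher and Tap2 lower, and Tapbp, Tap2, H2-K1 or H2-D1 were called in some other alternatives.

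Tapbp came closest. It had 59.4, 85 and 76.1 CPM in Sulindac against 36.7, 49.3 and 51.5 in Adenoma, so that each treated sample was above each untreated one. The log2 fold change was 0.69 ± 0.16 (adjusted p = 0.0126). It passed with no filter on low counts (0.00619), in 1 fit of all 9 samples (0.00623), with the replicate block (0.00377) and by DESeq2 (5.84e-04), and over the 13 alternatives its adjusted p reached up to 0.051. Of its 50-base stretches 23.2% are shared, mostly with the gene model Gm19412. Tap2 had 3.47, 3.7 and 2.62 CPM in Sulindac against 4.97, 5.39 and 6.62, again with no overlap, and a log2 fold change of -0.79 ± 0.2 (adjusted p = 0.0181, 0.0042 to 0.0741 over 13 alternatives). Tap2 passed with library size alone (0.00688) and by DESeq2 (0.0042).

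The classical heavy chains were higher in every treated sample than in every adenoma sample, but not past the threshold. H2-K1 had 496, 560 and 493 CPM in Sulindac, with a log2 fold change over Adenoma of 0.41 ± 0.14, at an adjusted p of 0.0521. H2-D1 had 339, 347 and 335 CPM, with 0.32 ± 0.12 (adjusted p = 0.0705). Without Adenoma replicate 3, which had the highest adenoma values, the log2 fold changes were 0.57 for H2-K1 (adjusted p = 0.00218) and 0.46 for H2-D1 (adjusted p = 0.00318), the lowest of the 13 alternatives for either gene, which reached up to 0.164 and 0.289.

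B2m had 134, 170 and 137 CPM in Sulindac, overlapping with Adenoma, and a log2 fold change of -0.31 ± 0.13, at an adjusted p of 0.097. Tap1, at 23.2, 22.1 and 21.7 CPM, had one of -0.21 ± 0.11 (adjusted p = 0.188). Psmb9 had 0.767, 0.306 and 0.349 CPM and a log2 fold change of -1.17 ± 0.41, at an adjusted p of 0.0545, and Psmb10 had 6.97, 6.67 and 4.13 CPM and one of -0.59 ± 0.24 (adjusted p = 0.0934). Both were below all adenoma samples in each treated sample. Psmb8 stayed at the floor, with 1, 0 and 2 counts in Sulindac, and was not tested.

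The pathway around them gave few calls with sulindac. None of the 14 constitutive proteasome genes, the 12 other heavy chain genes tested or the 14 peptide supply and loading genes passed by edgeR in either direction. Of them 1, 1 and 5 had an unadjusted p under 0.05, and DESeq2 called 0, 1 and 2. Psmb5 had a log2 fold change of 0.31 ± 0.13, Psmb6 of 0.1 ± 0.12 and Psmb7 of 0 ± 0.1. Psmb5 passed without Adenoma replicate 3 (log2 fold change 0.47, adjusted p = 0.00299, against up to 0.397 over 13 alternatives). Of the regulators, 1 of 18 passed, with Nfyb, a subunit of the factor that binds the CCAAT box, lower by a log2 fold change of -0.43 ± 0.094 (adjusted p = 0.00943, up to 0.0437 over 13 alternatives, of which 4 kept the call, and lost without any 1 sample but Adenoma replicate 3). Irf1 had -0.38 ± 0.091 (adjusted p = 0.0139, called with library size alone at 0.00272 and by DESeq2 at 0.00293) and Rfx5 had -0.27 ± 0.11. Ifngr1 rose, with 2696, 2294 and 2779 counts in Sulindac and a log2 fold change of 0.71 ± 0.15 (adjusted p = 0.00892, up to 0.0372 over 13 alternatives, of which 5 kept the call, and lost without any 1 sample). It stayed far below its MIN counts.

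Among 5 genes for other proteins that pair with B2m, 3 were tested, and 2 fell with sulindac. Cd1d1, which presents lipids to natural killer T cells, was counted 49, 63 and 66 times in Adenoma and 1, 0 and 3 times in Sulindac, and it entered the test through Adenoma alone. The summed counts of 178 and 4 give a 40.8-fold lower level with a counting interval of 15.6 to 151, and 19.1% of the stretches of Cd1d1 are shared with Cd1d2. Fcgrt, the heavy chain of the neonatal Fc receptor, had 87, 195 and 243 counts in Adenoma and 19, 55 and 37 in Sulindac, with a log2 fold change of -2.12 ± 0.45, at an adjusted p of 0.00774. That call was lost without Adenoma replicate 2 or 3 or any 1 of the Sulindac replicates, with adjusted p up to 0.0365. None of the 3 passed in Adenoma over MIN by edgeR or DESeq2 (2 had an unadjusted p under 0.05), where the log2 fold change of Cd1d1 was 1.04 (adjusted p = 0.0239) and that of Fcgrt -0.99 (adjusted p = 0.0452).

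The third comparison sets treated adenoma organoids against MIN and asks where the treated cultures stood relative to the gut beside the tumor. It shares its samples with the other comparisons and is no independent evidence. Of the 10 genes 9 were tested, 3 were higher (H2-D1, Tap1 and Tapbp) and 5 lower (B2m, Tap2, Psmb8, Psmb9 and Psmb10) in Sulindac, where 23% of all genes tested were higher and 26.8% lower. The median log2 fold change over the 9 was -0.91, against -0.03 over all 13551 genes. Psmb8, among the 5 lower and in this median, passed the filter through MIN alone and so had to differ.

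The treated organoids had the lowest levels of the immunoproteasome genes of the 3 groups, Psmb8 apart. Against Adenoma, however, neither Psmb9 nor Psmb10 was called (adjusted p = 0.0545 and 0.0934 by edgeR). Relative to MIN, Psmb10 had a log2 fold change of -2.43 ± 0.19, at an adjusted p of 1.06e-05 and Psmb9 of -3.48 ± 0.34 (adjusted p = 3.84e-05). Psmb8, with 3 counts in all, was 39.2-fold lower with a counting interval of 13.2 to 192, and it again entered the test through MIN alone. B2m had a log2 fold change of -0.91 ± 0.11, at an adjusted p of 1.09e-04 and Tap2 of -1.26 ± 0.2 (adjusted p = 5.71e-04). Tap1 was higher by 0.65 ± 0.11 (adjusted p = 8.8e-04) and Tapbp by 0.69 ± 0.12 (adjusted p = 0.00119). Apart from Psmb8, which had to differ, these calls held in all 13 alternatives.

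Of the heavy chains, only H2-D1 was called in this comparison. H2-K1 overlapped with MIN, with a log2 fold change of -0.01 ± 0.095, at an adjusted p of 0.941. H2-D1 lay above all MIN samples, with 0.43 ± 0.089 (adjusted p = 0.00265), a call that was lost in 1 fit of all 9 samples (0.0104), without MIN replicate 2 (0.0155) and without Sulindac replicate 1 (0.0112), its adjusted p ranging from 3.5e-05 to 0.0155 over 13 alternatives. The difference between the genes was not tested.

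In the lists, 1 of 14 constitutive proteasome genes was higher in Sulindac than MIN, Psmb5, by a log2 fold change of 0.35 ± 0.078 (adjusted p = 0.00418, up to 0.0352 over 13 alternatives, of which 8 kept the call, and lost without MIN replicate 1 or any 1 Sulindac replicate), while Psmb6 had -0.11 ± 0.088 and Psmb7 had -0.07 ± 0.079. Of 16 other heavy chain genes tested, 0 rose and 9 fell (median log2 fold change -1.02), led by H2-Q9 (at least 210-fold lower, 0 counts in all treated samples), H2-Q10 (1, 2 and 4 counts) and H2-Q6 (at least 56.9-fold lower). Of these 9, 4, the 3 named and H2-Q7, entered the test through MIN alone, so that they had to differ, and they are also in this median. Of the 14 peptide supply and loading genes, 0 rose and 8 fell (median -0.48), led by Erap1 (-1.84 ± 0.1, adjusted p = 1.39e-06) and Tapbpl (-1.45 ± 0.19, adjusted p = 2.3e-04). Psme2 had a log2 fold change of -0.65 ± 0.083, at an adjusted p of 1.72e-04. Of 17 regulators tested, 4 rose and 3 fell, with Irf8 at -2.46 ± 0.16, Nfkb1 at -0.95 ± 0.11, Rela at 0.9 ± 0.07 and Rfx5 at 0.51 ± 0.098 (adjusted p = 2.95e-06, 9.25e-05, 8.86e-06 and 0.00182), the last lost without MIN replicate 2 or Sulindac replicate 1 (0.0115 and 0.0107). Irf1 had a log2 fold change of 0.19 ± 0.19 and was not called. Of 9 interferon receptor and kinase genes tested, 2 rose and 2 fell. Ifngr1 was lower by a log2 fold change of -1.37 ± 0.13, at an adjusted p of 2.61e-05 and Il10rb by -0.94 ± 0.12 (1.57e-04), while Ifnar2 was higher by 0.84 ± 0.14 (9.44e-04). Cd1d1 and Fcgrt, the B2m partners that fell, were also low against MIN. Fcgrt had a log2 fold change of -3.12 ± 0.33, at an adjusted p of 6.3e-05, and Cd1d1, with 4 counts in all in Sulindac against 103 in MIN, entered the test through MIN alone.

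Levels per transcript length set the 10 genes in order within a group. In MIN, H2-K1 and B2m were alike at 320 ± 22.2 and 319 ± 18.1 RPKM, the CPM divided by the length in kilobases, followed by H2-D1 at 120 ± 10.3, Psmb10 at 24.2 ± 1.96, Tapbp at 15.7 ± 0.398, Tap1 at 4.83 ± 0.474, Psmb9 at 3.87 ± 0.357, Tap2 at 2.26 ± 0.291, Psmb8 at 0.755 ± 0.456 and Nlrc5 at 0.0175 ± 0.0202. In Adenoma, Tapbp (15.8 ± 2.76) and Tap1 (8.79 ± 0.987) stood above Psmb10 (6.82 ± 1.63), the last 2 of which lay within their spread of each other. Psmb9, at 0.788 ± 0.167, then stood below Tap2, at 1.64 ± 0.249. In Sulindac, H2-D1 at 162 ± 2.91 and B2m at 171 ± 23.2 lay within their spread of each other, while H2-K1 stood at 319 ± 23.4.

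Ratios within a sample, formed after the values were seen and not tested, show how partner genes shifted. The summed heavy chains H2-K1 and H2-D1 stood, per transcript length, at 1.56, 1.28 and 1.31 times B2m in MIN, at 1.72, 1.68 and 1.82 times in Adenoma and at 3.01, 2.58 and 2.9 times in Sulindac. These ranges did not overlap. Tap1 stood at 2.05, 2.27 and 2.13 times Tap2 in MIN, at 6.16, 4.95 and 5.04 times in Adenoma and at 7.81, 6.96 and 9.67 times in Sulindac, again with no overlap, although the subunits pair one to one in the transporter.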

How the data were processed

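RNA-seq was performed on 9 organoid samples in 3 groups of 3, and the authors deposited 1 table of raw counts per gene symbol, with no normalization. The submitters' processing notes name Bowtie2 2.2.4, RSEM and the build mm9, without roles. RSEM estimates fractional counts, and the deposited values are whole numbers. MIN replicate 1 has 3 columns, the third being the sum of the others in all 23955 rows, and the sum was used. The sample titles gave the group and number of each replicate. The study calls the replicates of each set biological. Where cultures were not separate, p-values measure the spread between these samples, which may be technical.

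Counts were filtered with filterByExpr, normalized by TMM and compared in R 4.3.3 by the robust glmQLFit and glmQLFTest of edgeR 4.0.16, with only the compared groups in the fit and a Benjamini-Hochberg FDR of 1%. Standard errors are the log2 fold change over the square root of F. CPM values use TMM factors over all 9 samples. Lengths are of the longest protein-coding GENCODE M21 transcript, and RPKM was computed from them. The script was tested on simulated data. Alternatives were size factors by RLE or from library size alone, no filter beyond 1 count, at least 10 counts in every sample, 1 fit of all 9 samples, a replicate block, DESeq2 1.42.0, an FDR of 5% and leaving out each sample.

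Departures from the group mean in MIN and Adenoma samples of the same number had correlations across genes of 0.13, 0.11 and 0.19. Between samples of different numbers they were -0.15 to 0.07. The labels share replicate numbers but name no shared animal. Because no shared animal is named, the main fit treated the samples as unpaired, with the replicate block as an alternative. With the block, the same counts of class I presentation genes were called (1 higher, 4 lower).

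The members and gene lists were chosen with earlier results of these data known. All 10 members are given throughout. From each other list, up to 3 genes per comparison are named, those with the largest change that passed without overlap, and Psmb5, Psmb6, Psmb7, Irf1, Rfx5 and Ciita always. Not every gene this rule names is reported here, and some genes are named outside it, among them H2-DMa and H2-DMb1 in Adenoma over MIN.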

Additional observations from a re-analysis of the deposited data

How the results depend on the processing

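Depth limits Nlrc5 and, outside MIN, Psmb8. In Sulindac over Adenoma, where no class I presentation gene was called, 1 was called with library size alone, 1 with no low-count filter, 1 in a single fit of all 9 samples, 1 with the replicate block, 2 by DESeq2 and 2 at an FDR of 5%, and 0 to 2 when single samples were left out. All genes called there numbered 2257, against 3544 by DESeq2, 4408 at an FDR of 5%, 1933 with the replicate block and 809 to 2891 when single samples were left out. The block changed no other call of a class I presentation gene. Same-numbered Adenoma and Sulindac samples had correlations of 0.25, 0.21 and -0.07, and MIN and Sulindac samples -0.03, 0.4 and 0.25. Differently numbered samples had -0.36 to 0.13 and -0.33 to 0.1. For no 2 groups do such values settle whether samples of the same number share an origin. With library size alone the median over all genes, on the log2 scale, moved to 0.12 in Adenoma over MIN and -0.18 in Sulindac over Adenoma, and higher genes made up 57.7% and 23.3% of calls, against 48% and 47.8%.

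Among the class I presentation genes and the always-named genes Psmb5, Psmb6, Psmb7, Irf1 and Rfx5, signs turned for genes that were not called. In Adenoma over MIN these were Tapbp (0 with the replicate block, -0.08 to 0.15 with single samples left out), H2-D1 (-0.02 to 0.2), Psmb5 (-0.12 to 0.16) and Psmb7 (0.07 with library size alone). In Sulindac over Adenoma they were Psmb6 (-0.07 with library size alone) and Psmb7 (-0.16 with library size alone, -0.01 with at least 10 counts in every sample, -0.01 in 1 fit of all 9 samples, -0.05 to 0.07 with single samples left out). In Sulindac over MIN it was H2-K1 (-0.06 to 0.04). The cause was not tested.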

Other observations

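Class II presentation genes, which are not part of the class I pathway, split in direction in adenoma. Of 14 listed, 7 were tested in Adenoma over MIN, 2 rose and 4 fell. Ctss, the protease cathepsin S, was counted 638, 789 and 716 times in MIN and 0, 1 and 0 times in Adenoma, 1820-fold lower relative to the normalized totals, with a counting interval of 327 to 72000. H2-Ab1, a class II beta chain, had 145, 55 and 53 counts in MIN and 0, 1 and 0 in Adenoma, whereas H2-Eb1, another beta chain, had 5, 4 and 4 counts in MIN and 33, 27 and 37 in Adenoma. These 3 passed the filter on low counts through 1 group alone, so that they had to differ, and no p is given. H2-DMa and H2-DMb1, chains of the class II peptide editor, had log2 fold changes of -2.96 ± 0.25 and 2.2 ± 0.27 (adjusted p = 1.96e-05 and 2.02e-04 by edgeR). They are named here outside the rule for naming genes. Of their 50-base stretches, 8.4% are shared with Brd2 and 22.7% with H2-DMb2. In Sulindac over Adenoma 4 were tested, 1 rose and 2 fell. H2-Eb1 had 0, 1 and 6 counts in Sulindac and entered the test through Adenoma alone. Ifi30, a lysosomal thiol reductase, rose by 1.02 ± 0.17 on the log2 scale (adjusted p = 0.00273, lost without Sulindac replicate 1 or 2, up to 0.0123). It stayed below MIN, with 217.6 ± 17.5 CPM in MIN, 38.55 ± 7.6 in Adenoma and 77.78 ± 13.2 in Sulindac. In Sulindac over MIN 5 were tested, 0 rose and 4 fell. Of these 4, 2, H2-Ab1 and Ctss, entered the test through MIN alone and so had to differ.

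Ligands that T cells and natural killer cells read beside class I also moved. Of 9 with a row, 4 were tested in Adenoma over MIN, 2 rose and 2 fell. Cd274, which encodes PD-L1, had 60, 94 and 177 counts in MIN, 407, 727 and 650 in Adenoma and 203, 258 and 235 in Sulindac. Its log2 fold change was 2.62 ± 0.43 in Adenoma over MIN (adjusted p = 0.00102) and -1.23 ± 0.21 in Sulindac over Adenoma (adjusted p = 0.00349). The second call was lost in 1 fit of all 9 samples and without Adenoma replicate 2 or any 1 of the Sulindac replicates, with adjusted p up to 0.0235. Pdcd1lg2, which encodes PD-L2, had 1, 1 and 4 counts in MIN, 16, 15 and 20 in Adenoma and 3, 4 and 6 in Sulindac, and in both comparisons of Adenoma it entered the test through Adenoma alone. Raet1e, a ligand of the NKG2D receptor, fell from 408, 518 and 611 counts in MIN to 101, 47 and 99 in Adenoma (log2 fold change -2.42 ± 0.33, adjusted p = 3.6e-04), and 44.7% of its 50-base stretches are shared, mostly with Raet1d. In Sulindac over Adenoma 4 were tested, 0 rose and 2 fell, and in Sulindac over MIN 3 were tested, 0 rose and 2 fell.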
